A study of Mus musculus with 60 samples.

Results

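The 43 genes described here encode the machinery that copies DNA in S phase and a few of its regulators, and they were chosen by symbol from the 55357 genes listed in the deposited count table. All 43 were found, each as 1 gene, and all 43 passed the filter on low counts that 23360 genes passed. The study sequenced polyA RNA of sorted gut epithelial cells from mice 8 weeks old that carry an Lgr5-2A-eGFP allele, in which green fluorescent protein (GFP) is made together with Lgr5, a receptor of stem cells at the crypt base. The 5 gut parts were 3 equal lengths of small intestine (proximal, middle and distal) and the proximal and distal colon, and sorting by GFP divided each into a high, an intermediate and a negative fraction. The 15 groups hold 4 libraries each, 60 in all. Every group, the GFP-negative fractions included, carries the same allele, with no treatment named, and each is set apart only by gut part and GFP gate. After chelation and TrypLE dissociation, each colon fraction held at least 30000 sorted cells and each small intestinal one 50000. Nothing in the labels says whether the 4 replicates came from separate animals or from pools, so the p-values below measure only the spread between these libraries, which may be technical.

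Copying a genome begins before S phase, when the origin recognition complex (Orc1 and Orc6 are subunits) with Cdc6 and Cdt1 loads the Mcm2 to Mcm7 helicase ring onto DNA. At the onset of S phase Cdc45 and the GINS complex join the ring and switch it on, polymerase alpha with primase lays down primers, and polymerases delta and epsilon extend them while held by the Pcna clamp, which the Rfc complex loads. Many of these genes are transcribed under E2F factors late in G1, and in the gut the dividing cells lie in the crypts, where Lgr5 stem cells at the base give rise to rapidly cycling progenitors above them, while the villus and the surface epithelium consist of cells that no longer divide.

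Promoters are shown as background to these genes, and no link between their letters and the levels below was tested. RefSeq promoter windows on GRCm38.p6, from 250 bases before to 50 bases after the start of the gene, were at hand for 35 of the 43 members. Letters of the E2F type (TTTCCCGC, TTTGGCGC, TTTCGCGC or TTTGCCGC, on either strand, overlaps allowed) occurred in 14 of these 35 members, or 40.0%, against 2.6% of the 27025 genes in the table. The CCAAT letters (CCAAT or ATTGG) occurred in 60% of the members' windows and in 41.1% of all genes', and TATAAA (or TTTATA) in 8.57% and 15.7%. Of 36 replication genes outside the 43, 29 had a window, with E2F-type letters in 9 of them (31.0%) and CCAAT letters in 15 (51.7%), so the E2F-type letters were not particular to the members. Of 22 mitosis genes, 18 had a window, with E2F-type letters in 1 of them (5.56%) and CCAAT letters in 16 (88.9%). In 8 members the E2F-type letters lay wholly before the start. The stretches below, from 5 of those, are written 5′ to 3′ along the gene with the matching letters in capitals and neighbouring bases in lower case. Mcm6 (chr1:128359725-128359835, minus strand) held 3 matches, of which 2 overlap, Mcm5 (chr8:75109336-75109387, plus strand) held 2 that overlap, and Orc1 (chr4:108579407-108579453, plus strand), Cdc6 (chr11:98907993-98908040, plus strand) and Pola1 (chrX:93632266-93632313, minus strand) held 1 each. A match is a description of the letters and no evidence that a factor binds there.
Mcm6: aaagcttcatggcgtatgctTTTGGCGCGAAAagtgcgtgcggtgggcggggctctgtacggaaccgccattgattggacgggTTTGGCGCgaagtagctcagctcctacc
Mcm5: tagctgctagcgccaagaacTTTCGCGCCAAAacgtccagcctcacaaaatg
Orc1: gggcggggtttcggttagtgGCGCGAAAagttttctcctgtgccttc
Cdc6: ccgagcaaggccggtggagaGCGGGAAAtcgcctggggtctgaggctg
Pola1: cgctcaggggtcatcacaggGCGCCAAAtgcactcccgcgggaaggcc

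The libraries held 55411864 to 113917959 counts, with a median of 81230235, and the 43 members took between 0.0776 and 0.494% of them. Levels are given below as CPM, counts scaled to a common library total, with library sizes adjusted by TMM, edgeR's normalization. Markers of epithelium were high in every library (7 genes, summed level 6501 to 22806 CPM), and Lgr5 in GFP-high cells exceeded GFP-negative cells of each part by 4.44 (proximal colon) to 7.46 (distal small intestine) on the log2 scale. Other cell types moved with the gate. The 14 leukocyte markers summed to 875 to 3278 CPM in GFP-negative and 151 to 2052 CPM in GFP-high libraries of the small intestine, and to 161 to 1370 and 7.70 to 38.5 CPM in those of the colon. Paneth cell markers (5 genes) ran the other way in the small intestine, at 4405 to 20458 CPM in GFP-high and 297 to 1100 CPM in GFP-negative libraries. Goblet cell markers (5 genes) summed to 1671 to 3807 CPM in GFP-high and 32025 to 58100 CPM in GFP-negative libraries of the small intestine, and to 10598 to 29732 and 15798 to 56468 CPM in the colon. Absorptive cell markers (8 genes) summed to 492 to 1765 and 9383 to 19676 CPM in the small intestine, and to 98.0 to 4326 and 446 to 7192 CPM in the colon. Enteroendocrine markers (4 genes) summed to 89.7 to 291 CPM in GFP-high and 3611 to 11165 CPM in GFP-negative libraries of the proximal colon, and to 58.2 to 81.7 and 327 to 723 CPM in the distal colon. In the small intestine they summed to 41.6 to 202 and 150 to 782 CPM. Tuft cell markers (4 genes) ran from 82.4 to 300 CPM in GFP-high and from 20.6 to 48.3 CPM in GFP-negative libraries of the small intestine, and from 43.6 to 232 and from 82 to 232 CPM in the colon. Stromal markers (7 genes) were low throughout, at 2.44 to 6.63 and 13 to 96.4 CPM in the small intestine and 4.63 to 8.08 and 14.4 to 100.3 CPM in the colon. The 8 crypt base stem cell genes, Lgr5 among them, held 11300 to 16986 CPM in GFP-high libraries of the small intestine and 647 to 1086 CPM in those of the colon. Such a sum is weighted towards its most abundant genes and does not measure the share of stem cells. Lgr5 alone was lower in GFP-high cells of the colon by a log2 difference of -0.86 (edgeR's quasi-likelihood test, adjusted p = 5.35e-05). All 14 leukocyte genes had a count in every group except Tyrobp, which had none in GFP-high libraries of the distal colon, and the part of these cells in the results below was not tested.

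**Figure D1:**
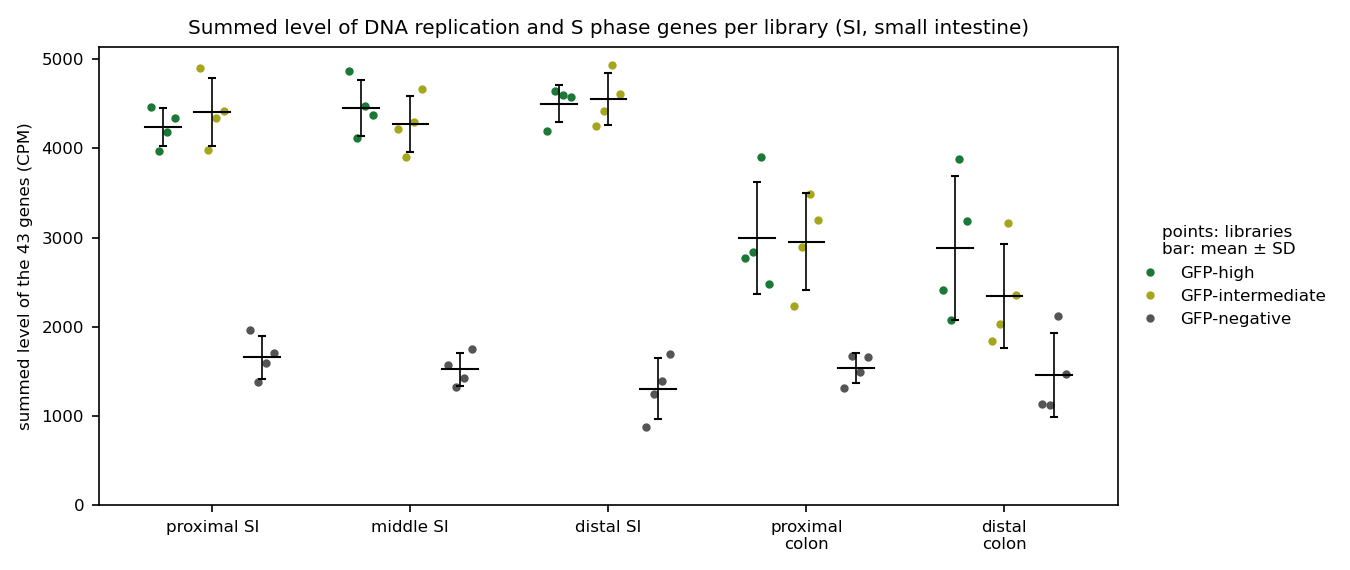
Summed level of the 43 members (vertical axis, CPM) in each of the 60 libraries, by gut part and GFP fraction, with the group mean and SD. GFP-high and GFP-intermediate libraries of the small intestine lie between 3907 and 4935 CPM, those of the colon between 1841 and 3905 CPM, and the GFP-negative libraries of both organs between 873 and 2118 CPM.

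DNA replication genes were more abundant in GFP-high cells than in GFP-negative cells of all 5 gut parts, and the difference was larger in the small intestine than in the colon. Summed over the 43 members, the 4 GFP-high libraries of the proximal small intestine held 4459, 3973, 4189 and 4336 CPM and the GFP-negative libraries 1961, 1381, 1588 and 1705 CPM. In the distal small intestine the sums were 4196, 4648, 4596 and 4572 CPM in GFP-high and 873, 1244, 1394 and 1697 CPM in GFP-negative libraries. GFP-high libraries of the distal colon held 2410, 2079, 3882 and 3181 CPM against 1128, 1122, 2118 and 1472 CPM in the GFP-negative ones. The 2 fractions did not overlap in either part of the small intestine, whereas in the distal colon GFP-negative replicate 3 exceeded GFP-high replicate 2. In bulk RNA, fewer cells of a type and less RNA per cell cannot be told apart, and a higher sum may hold more S phase cells or more of these transcripts per cell.

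The members called higher (adjusted p below 0.05 over all genes tested) numbered 43 in the proximal, 41 in the middle and 42 in the distal small intestine, 38 in the proximal colon and 35 in the distal colon, and none was called lower. Of all genes tested, 47.1, 48.3, 52, 25.3 and 25.1% were called in either direction in these 5 comparisons, and 22.5, 22.7, 25.7, 11.3 and 11.2% were called higher. The median member was 2.61-fold, 2.93-fold and 3.55-fold higher in the small intestine, in the same order, and 1.91-fold and 1.86-fold higher in the proximal and distal colon. The median over all genes lay between -0.04 and 0.00 on the log2 scale in all 5. All 4 GFP-high libraries lay above all 4 GFP-negative ones for 43, 42 and 41 members in the 3 small intestinal parts and for 32 and 18 in the proximal and distal colon, and 21.7, 21.4, 21.1, 8.76 and 10.3% of all genes did the same. Within replicate numbers, GFP-high exceeded GFP-negative in 4 of 4 numbers for 39 members in the proximal and 40 in the distal colon. The share of all genes that met this looser rule is not given here, so these 2 counts cannot be set against it. Members called higher in all 5 parts numbered 34, and the other 9 were Ccne1, Ccne2, Fen1, Orc1, Pold2, Rpa1, Rpa3, Rrm2 and Tk1.

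**Figure D2:**
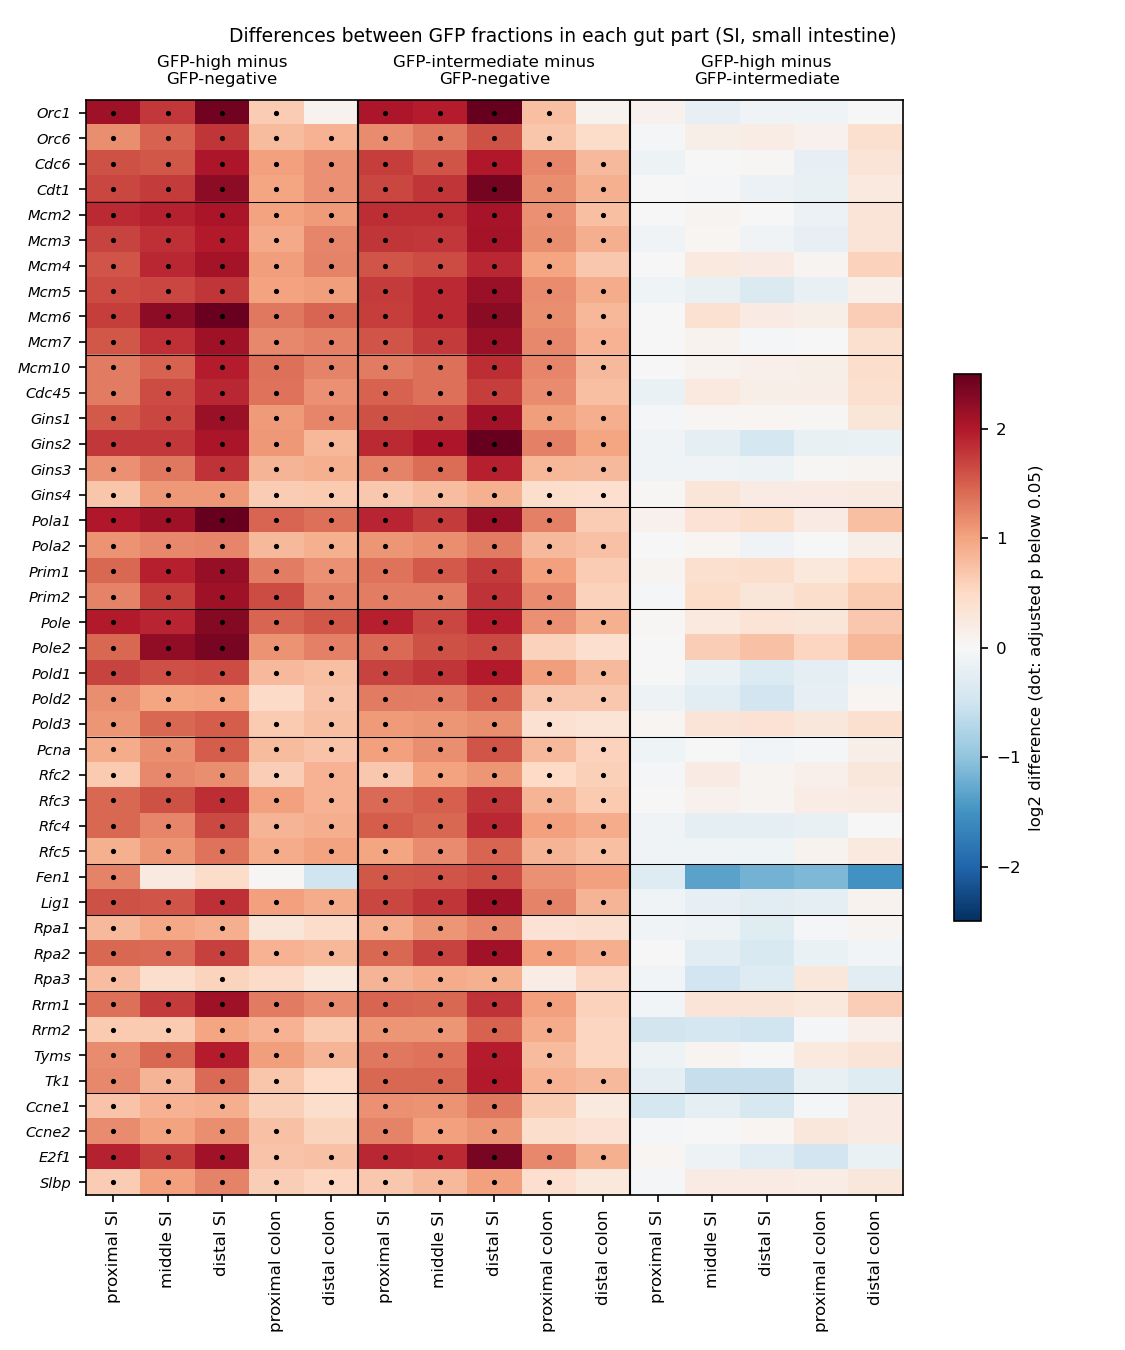
Log2 differences of the 43 members (one per line, grouped by role) between GFP-high and GFP-negative, GFP-intermediate and GFP-negative, and GFP-high and GFP-intermediate cells in the 5 gut parts. Colour gives the difference and a dot marks a called member. Differences from GFP-negative cells are positive for nearly every member, with medians from 0.74 to 1.85, and medians between the 2 GFP-positive fractions run from -0.04 to 0.25.

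Among the origin licensing genes, Orc1 had the GFP-high to GFP-negative difference that differed most between the organs. Orc1 measured 13.6, 12.4, 11.6 and 11.5 CPM in GFP-high and 1.75, 2.30, 4.33 and 2.80 CPM in GFP-negative libraries of the proximal small intestine, a log2 difference of 2.13 ± 0.20 (SE, adjusted p = 4.27e-13). In the distal small intestine it was 11.9, 16.5, 13.0 and 12.7 CPM against 2.76, 3.23, 2.72 and 1.47 CPM, a log2 difference of 2.41 ± 0.20 (adjusted p = 1.04e-14). GFP-high libraries of the distal colon read 8.89, 11.1, 13.2 and 11.8 CPM and GFP-negative ones 11.4, 9.81, 10.7 and 10.6 CPM. The GFP-high and GFP-negative libraries thus lay far apart in the small intestine and overlapped in the distal colon, where Orc1 was not called. Cdt1, which helps to load the helicase at origins, measured 120, 109, 121 and 121 CPM in GFP-high and 47.1, 35.6, 34.2 and 32.5 CPM in GFP-negative libraries of the proximal small intestine (log2 difference 1.66 ± 0.19, adjusted p = 1.48e-10). In the proximal colon Cdt1 read 58.8, 74.9, 85.4 and 58.8 against 31.4, 40.3, 31.4 and 36.7 CPM (0.99 ± 0.18, adjusted p = 4.55e-05). Neither pair overlapped. All 4 licensing genes were called higher in the proximal colon and 3 of 4 in the distal colon.

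All 6 subunits of the MCM helicase were called higher in all 5 parts. Mcm6 measured 511, 366, 416 and 353 CPM in GFP-high and 91.2, 64.1, 78.0 and 114 CPM in GFP-negative libraries of the middle small intestine, a log2 difference of 2.24 ± 0.25 (adjusted p = 1.25e-10). In the distal colon it measured 217, 167, 315 and 265 CPM against 59.4, 55.2, 123 and 114 CPM (1.46 ± 0.25, adjusted p = 1.12e-05). No GFP-negative library reached the lowest GFP-high library in either part. Differences of Mcm6 in the other parts were 1.73 (proximal small intestine), 2.47 (distal small intestine, adjusted p = 9.18e-12) and 1.32 (proximal colon, adjusted p = 4.5e-05). Helicase activation followed the same direction, with all 6 of its genes called in both colon parts. Mcm10, which helps the assembled helicase to start, measured 104, 122, 122 and 131 CPM in GFP-high and 22.0, 32.9, 35.9 and 31.1 CPM in GFP-negative libraries of the distal small intestine. In the distal colon it read 43.8, 33.7, 73.8 and 54.9 against 15.3, 14.0, 37.3 and 20.3 CPM (1.25, adjusted p = 3.17e-05), and there the highest GFP-negative library, replicate 3, exceeded the lowest GFP-high one.

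**Figure D3:**
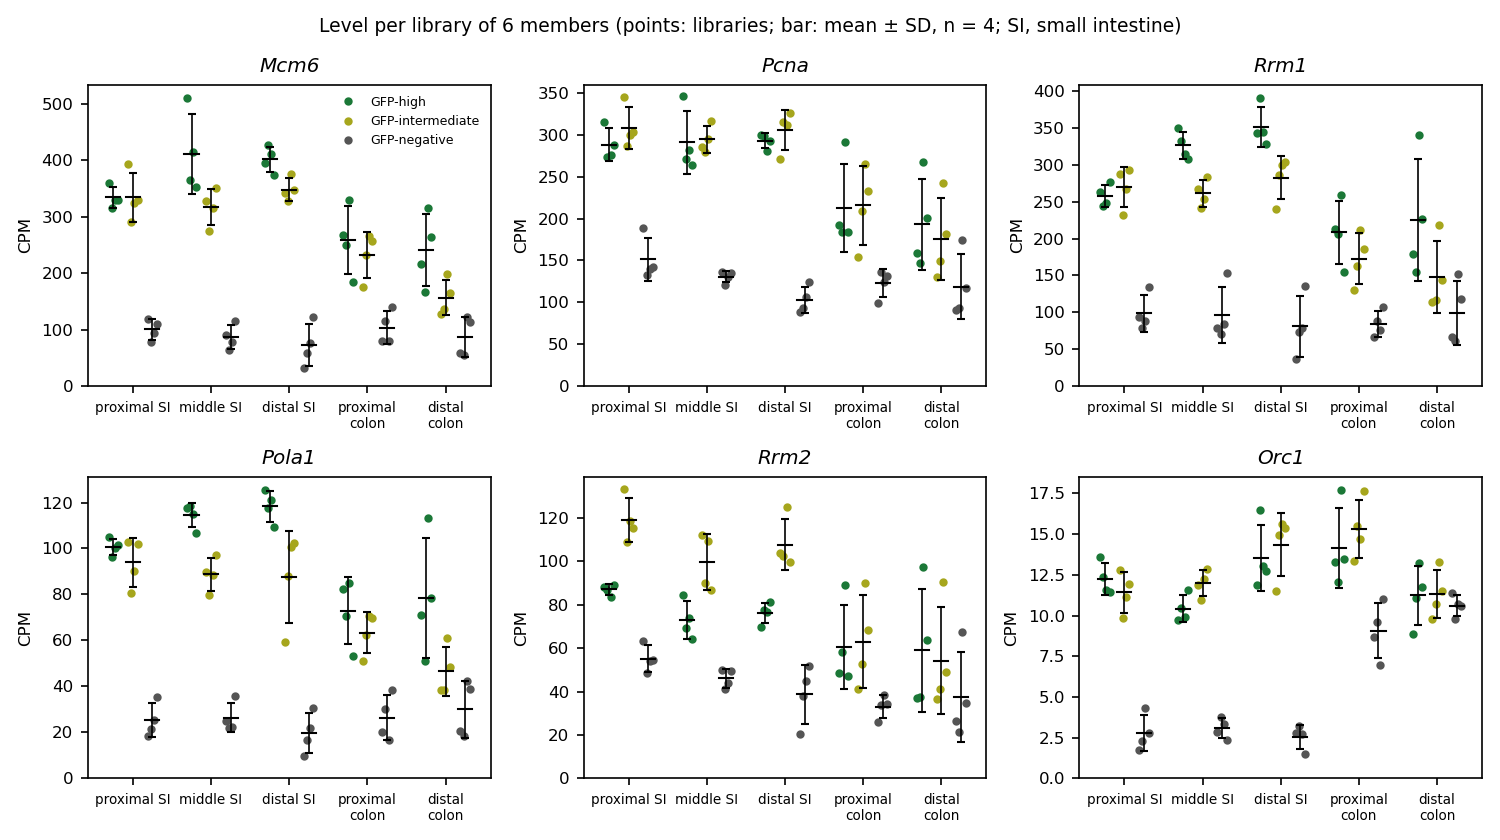
Levels of Mcm6, Pcna, Rrm1, Pola1, Rrm2 and Orc1 (CPM, 1 panel per gene) in every library, by gut part and GFP fraction. Points are libraries and bars are group means with SD. Mcm6, Pola1 and Rrm1 have their lowest mean in the GFP-negative fraction of every part, whereas Orc1 in GFP-negative libraries reads 1.47 to 4.33 CPM in the small intestine and 6.98 to 11.4 CPM in the colon.

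Among the primase and polymerase genes, Pola1 and Pole had large differences in every part and Pold2 smaller ones. Pola1, the catalytic subunit of polymerase alpha, measured 125, 117, 121 and 109 CPM in GFP-high and 9.91, 16.5, 21.8 and 30.7 CPM in GFP-negative libraries of the distal small intestine, a log2 difference of 2.58 ± 0.27 (adjusted p = 9.24e-12). In the proximal colon Pola1 measured 82.5, 70.8, 85.1 and 53.2 CPM against 20.2, 30.2, 16.7 and 38.6 CPM (1.46 ± 0.26, adjusted p = 1.66e-05). The 2 fractions stayed apart in both. Averaged over the 5 parts, the log2 difference was largest for Pola1 (1.91), then Mcm6 and Pole (both 1.84), Pole2 (1.68) and Prim1 (1.59). Prim2, the large subunit of primase, had the largest difference in the proximal colon (1.63 ± 0.23, adjusted p = 1.97e-07), at 36.8, 26.8, 45.5 and 22.9 CPM against 9.87, 14.6, 7.64 and 10.5 CPM. Pole, the catalytic subunit of polymerase epsilon, led in the distal colon (1.56 ± 0.27, adjusted p = 2.24e-05), at 57.0, 40.7, 89.8 and 69.8 CPM against 14.2, 14.5, 31.3 and 27.5 CPM. Both genes were apart in every library of these comparisons. Pold2, an accessory subunit of polymerase delta, had smaller differences, 1.16 in the proximal small intestine and 0.47 in the proximal colon, where its interval ran from 0.09 to 0.85 and it was not called (adjusted p = 0.0595).

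Clamp and clamp loader genes, 5 in number, were all called higher in every part. Pcna, the clamp itself, measured 316, 274, 275 and 287 CPM in GFP-high and 189, 133, 140 and 143 CPM in GFP-negative libraries of the proximal small intestine, a log2 difference of 0.93 ± 0.18 (adjusted p = 1.46e-05). In the distal colon it read 159, 147, 267 and 200 against 90.6, 92.9, 175 and 117 CPM (0.70, adjusted p = 0.00194). The GFP-negative libraries lay below in the small intestine, and in the distal colon GFP-negative replicate 3 exceeded GFP-high replicates 1 and 2. Lig1, the ligase that seals Okazaki fragments, was 1.58 higher in the proximal small intestine and 0.92 higher in the distal colon (adjusted p = 0.000346). Rpa1, the large subunit of the protein that coats single-stranded DNA, was 0.81 higher in the proximal small intestine (adjusted p = 0.000387). In the colon Rpa1 was not called, with intervals from -0.07 to 0.69 (proximal, adjusted p = 0.249) and from 0.08 to 0.85 (distal, adjusted p = 0.0664). Of the 3 Rpa genes, 1 was called in each colon part.

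Not all genes of nucleotide supply and G1/S control were called in the colon, and none was called lower there. Rrm1, the large subunit of ribonucleotide reductase, measured 343, 391, 344 and 328 CPM in GFP-high and 36.1, 73.8, 78.1 and 135 CPM in GFP-negative libraries of the distal small intestine (2.12 ± 0.27, adjusted p = 2.66e-09). In the distal colon it read 179, 155, 340 and 227 against 67.2, 60.8, 152 and 118 CPM (1.18, adjusted p = 0.000552). No GFP-negative library reached the GFP-high ones in either part. All 4 nucleotide supply genes were called in the proximal colon and 2 of 4 in the distal colon. Slbp, which binds the stem loop of histone mRNAs, had smaller differences, the smallest in the distal colon (0.54, adjusted p = 0.000646) and the largest in the distal small intestine (1.24, adjusted p = 3.87e-12). Of the 4 genes of G1/S control and histone mRNA, 3 were called in the proximal and 2 in the distal colon.

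GFP-intermediate cells were also higher than GFP-negative cells, a comparison that shares its GFP-negative libraries with the one above. All 43 members were called higher in each small intestinal part (proximal, middle and distal), 37 in the proximal colon and 25 in the distal colon, and none lower. Of all genes, 41.6, 41, 44.5, 15 and 9.8% were called in the 5 parts, in that order, and 19.7, 19.8, 22.8, 7.51 and 3.85% were called higher. The median member was 2.70-fold, 2.71-fold and 3.61-fold higher in the small intestinal parts, 2.02-fold in the proximal colon and 1.67-fold in the distal colon. Pola1 (1.26, adjusted p = 0.000228) and Gins2 (1.26, adjusted p = 7.58e-05) had the largest called differences in the proximal colon, and Gins2 (0.99, adjusted p = 0.00263) in the distal colon. Gins2, a GINS subunit whose counts are uncertain because most of its exonic bases overlap another gene, measured 15.9, 20.7, 25.7 and 20.6 CPM against 7.82, 11.2, 8.31 and 7.29 CPM in the proximal colon, and its 2 fractions were apart there. Pola1 and Rrm1 were not called in the distal colon, with intervals from 0.13 to 1.14 (adjusted p = 0.107) and from 0.05 to 1.09 (adjusted p = 0.171). The distal colon count rested on single libraries, since it was 10 without GFP-intermediate replicate 3, 13 without GFP-negative replicate 2 and 15 without GFP-negative replicate 1.

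Between GFP-high and GFP-intermediate cells no member was called in any of the 5 parts by edgeR's quasi-likelihood test. At an unadjusted p below 0.05 the counts were 0, 7, 5, 3 and 13 in the small intestine from its proximal to its distal part and in the proximal and distal colon, and DESeq2 called 0, 1, 4, 0 and 5. Of all genes, 0.449, 3.58, 13.5, 0.0428 and 1.81% were called. Lgr5 itself, the gate's own gene, was 2.04, 2.05 and 1.93 higher in GFP-high cells of the 3 small intestinal parts, and 1.10 (not called, adjusted p = 0.141) and 1.46 higher in the proximal and distal colon. The members' medians were -0.04, 0.05, -0.04, 0.03 and 0.25 on the log2 scale. The 95% interval of the difference lay within 2-fold for 42, 40, 39, 41 and 35 of the 43 members and within 1.5-fold for 34, 20, 19, 20 and 14. In the proximal small intestine, for example, the interval of Mcm6 ran from -0.48 to 0.48. In the distal colon Pola1 was 0.75 higher in GFP-high cells, with an interval from 0.25 to 1.26 (adjusted p = 0.0826). With the replicate number as a block, Pola1 passed there (0.75, adjusted p = 0.048) and Fen1 was lower by a log2 difference of -1.47 (adjusted p = 0.0465), and in the distal small intestine Pole2 (0.75, adjusted p = 0.0482) and Pold3 (0.36, adjusted p = 0.0442) passed. These 4 were singled out after their values were seen.

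Although no member passed the test, the libraries of the 2 GFP-positive fractions were apart for some members of the small intestine, upward or downward, as they were for a share of all genes. In the middle part 9 members had all GFP-high libraries above all GFP-intermediate ones and 6 had them below. The distal part had 6 above and 9 below. Shares over all genes were 8.63% above and 10.4% below in the middle part and 9.7 and 12.4% in the distal part. The members above in both parts were Pola1, Prim1, Pole, Pole2, Pold3 and Rrm1, and those below in both were Pold2, Lig1, Rrm2 and Tk1; 0 members went opposite ways. Pole2, a small subunit of polymerase epsilon, measured 31.9, 28.0, 24.6 and 24.6 CPM in GFP-high and 15.2, 16.1, 17.0 and 17.7 CPM in GFP-intermediate libraries of the distal small intestine. Tk1, which salvages thymidine, measured 49.9, 86.8, 90.1 and 101 against 119, 120, 131 and 118 CPM there, and Rrm2, the small subunit of ribonucleotide reductase, 69.7, 77.4, 76.6 and 81.0 against 104, 102, 125 and 99.5 CPM. Rrm1 and Rrm2, whose products form 1 enzyme, lay on opposite sides of the GFP-intermediate libraries. This pair was picked out after the values were seen, and neither gene was called in the fit of all 60 libraries. Their exonic lengths in the deposited table ran from 2881 to 11160 bases for the 6 members above and from 1896 to 5198 bases for the 4 below, and the part of transcript length in the split was not tested. In a fit of only the 2 fractions compared, 10 members were called in the middle part (6 higher and 4 lower) and 13 in the distal part (4 higher and 9 lower). The share of all genes called in that fit is not given here, so these counts cannot be set against it.

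In both GFP-positive fractions most of these transcripts had lower levels in the colon than in the small intestine, in CPM, which is not an amount per cell. Among GFP-negative cells the members' median difference was 0.00 on the log2 scale. Lgr5 itself differed between the organs by -0.86 in GFP-high, -0.13 (not called) in GFP-intermediate and 1.62 in GFP-negative cells. Its part in the members' differences was not tested. In GFP-high cells 37 members were called lower in the colon (mean of 2 parts against mean of 3) and none higher, with a median 1.47-fold lower, and 42.2% of all genes were called in either direction, 21.3% lower. In GFP-intermediate cells 42 were lower, with a median 1.68-fold lower, and 44.1% of all genes were called, 22% lower. In GFP-negative cells 4 members were higher and 4 lower, and 50.5% of all genes were called, 28.1% higher and 22.4% lower. The members lower in the colon in both GFP-positive fractions numbered 37. All 8 colon libraries lay below all 12 small intestinal ones for 8 members in GFP-high cells (Cdt1, Mcm2, Mcm3, Mcm10, Gins1, Prim1, Rfc4 and Lig1) and for 28 in GFP-intermediate cells, against 4.03 and 8.22% of all genes.

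Fen1, a flap nuclease of Okazaki fragments, had the largest difference in GFP-high cells (-1.35 ± 0.30, adjusted p = 0.000186), at 0.479 to 2.00 CPM in the colon and 1.39 to 6.10 CPM in the small intestine. Its reads are uncertain: in the annotation 84.2% of its exonic bases are shared with genes of the opposite strand (78.8% with Gm10143), and whether the counting used strand is not given in the sources used here. Gins1, a GINS subunit, was next (-1.04 ± 0.16, adjusted p = 2.76e-07), with 7.75 to 15.6 CPM (median 11.3) in the 8 colon and 21.1 to 27.6 CPM (median 23.8) in the 12 small intestinal libraries. Mcm10 was lower by a log2 difference of -0.93 ± 0.15 (adjusted p = 5.25e-07), at 33.7 to 82.7 CPM (median 54.5) against 84.9 to 131 CPM (median 105). Both were apart in all 20 libraries, which share 4 replicate numbers. The fit had no term for that number, and with it as a block 40 members were called in GFP-high cells. Cdt1 ran from 47.1 to 85.4 CPM (median 66.9) in the colon and from 88.0 to 138 CPM (median 121) in the small intestine (-0.83 ± 0.12, adjusted p = 9.54e-08). The other leaders of their roles were lower by -0.61 (Mcm6, adjusted p = 0.00127), -0.55 (Pola1), -0.52 (Pold2 and Pcna), -0.62 (Lig1), -0.51 (Rrm1, adjusted p = 0.0113) and -0.40 (Rpa1 and Slbp), and for these, other than Lig1, the 2 organs overlapped. In GFP-intermediate cells Gins1 (-1.19 ± 0.16, adjusted p = 1.16e-08) and Mcm10 (-1.16 ± 0.15, adjusted p = 3.3e-09) had the largest differences.

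**Figure D4:**
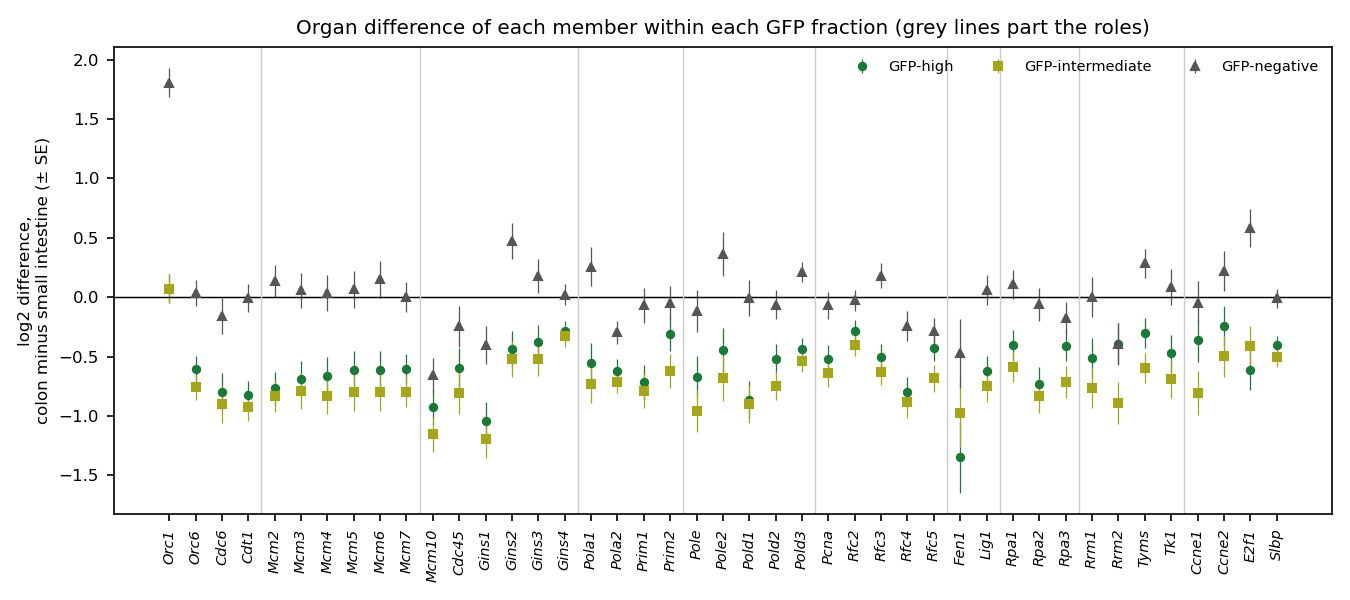
Log2 difference between colon and small intestine (vertical axis, ± SE) for each of the 43 members (horizontal axis, grouped by role) in GFP-high, GFP-intermediate and GFP-negative cells. GFP-high and GFP-intermediate values lie mostly below 0 (medians -0.55 and -0.75), GFP-negative values lie around 0 (median 0.00), and Orc1 in GFP-negative cells stands apart at 1.81.

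In GFP-negative cells the members called apart between organs were Orc1, E2f1, Gins2 and Pold3, higher in the colon, and Mcm10, Gins1, Pola2 and Rfc5, lower. Orc1 ran from 6.98 to 11.4 CPM (median 10.2) in the 8 colon libraries and from 1.47 to 4.33 CPM (median 2.78) in the 12 small intestinal ones, a log2 difference of 1.81 ± 0.12 (adjusted p = 7.72e-19). It was the only member whose GFP-negative libraries of the 2 organs did not overlap with the colon above, against 6.42% of all genes. An antisense neighbour, Gm12743, shares 10.8% of the exonic bases of Orc1 and was at or below 0.837 CPM in every library. E2f1, the transcription factor of the G1/S switch, was 0.58 ± 0.16 higher (adjusted p = 0.00229), at 7.03 to 21 CPM (median 10.3) against 5.06 to 13.0 CPM (median 7.70), and these overlapped. Gins2 was 0.47 ± 0.15 higher (adjusted p = 0.00696), but 67.3% of its exonic bases are shared with Gse1 on the opposite strand, a gene at 26.7 to 106 CPM, so its counts are uncertain. Mcm10 was lower by a log2 difference of -0.66 ± 0.15 (adjusted p = 0.00014). Lgr5 was itself 1.62 higher in GFP-negative cells of the colon than of the small intestine (adjusted p = 1.86e-11), and its part in these differences was not tested.

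The difference between GFP-high and GFP-negative cells was smaller in the colon than in the small intestine for 29 of the 43 members, by the test of that difference itself, and larger for none. The median member's difference was smaller by -0.60 on the log2 scale, 32.2% of all genes were called and 17.7% were called in this direction. Orc1 led (-1.74 ± 0.17, adjusted p = 8.74e-12), followed by E2f1 (-1.20 ± 0.23, adjusted p = 4.13e-05) and Gins2 (-0.91 ± 0.21, adjusted p = 0.000573). All 4 licensing genes and all 6 MCM subunits were among the 29, with Cdt1 at -0.82 (adjusted p = 8.91e-05) and Mcm6 at -0.76 (adjusted p = 0.00518), and 3 of 6 helicase activation, 2 of 4 primase and polymerase alpha and 4 of 5 polymerase delta and epsilon genes were too. Mcm10 was not called, with an interval from -0.68 to 0.13 (adjusted p = 0.345), nor was Rrm1 (-0.99 to -0.04, adjusted p = 0.0937). Lgr5 had a smaller difference in the colon as well (-2.47, adjusted p = 1.29e-11), and its part in the members' result was not tested. Between GFP-high and GFP-intermediate cells, the same test called 0 members by edgeR (1 at an unadjusted p below 0.05, 0 by DESeq2) and 0.291% of all genes.

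Within an organ, no member was called between GFP-high cells of the outer parts in the fit of all 60 libraries. Distal against proximal colon gave 0 called members (1 at an unadjusted p below 0.05, 0 by DESeq2), a median of -0.07 and 7.8% of all genes called, and the intervals of 42 members lay within 2-fold. Mcm6, for example, measured 217, 167, 315 and 265 CPM in the distal and 267, 251, 331 and 184 CPM in the proximal colon, with overlapping libraries and an interval from -0.58 to 0.38. The change of the GFP-high to GFP-negative difference between the colon parts was likewise called for 0 members (1 at an unadjusted p below 0.05, 0 by DESeq2) and 0.616% of all genes. Distal against proximal small intestine gave 0 called members (5 at an unadjusted p below 0.05, 1 by DESeq2), a median of 0.06 and 11.8% of all genes called. There, 11 members lay above and 4 below in every library (12.5 and 13.2% of all genes), among them Rrm1, at 343, 391, 344 and 328 CPM in the distal and 263, 244, 248 and 277 CPM in the proximal part, whose interval ran from -0.07 to 0.97. A fit of only the groups compared, which takes the spread from them alone, called 11 members higher and 4 lower by edgeR's quasi-likelihood test. Rrm1 was among the higher ones (0.44, adjusted p = 0.00192). The share of all genes called in that restricted fit is not given here, so its counts cannot be set against it.

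Replicates of the GFP-positive fractions varied more in the colon than in the small intestine, and colon libraries numbered 3 stood high in 5 of the 6 colon groups. The median coefficient of variation of the members was 7.57 to 10.2% in GFP-high and GFP-intermediate groups of the small intestine and 18.9 to 28.1% in those of the colon. In GFP-negative groups it was 18.6 to 27.5% in the small intestine, 20.6% in the proximal colon and 38.9% in the distal colon. Replicate 3 was the highest of the 4 libraries for 38, 43 and 37 members in GFP-high, GFP-intermediate and GFP-negative cells of the distal colon, and for 42, 36 and 10 in those of the proximal colon. Rrm1, for example, read 340 CPM in GFP-high replicate 3 of the distal colon and 155 to 227 CPM in the other 3. Without the 6 colon libraries numbered 3, GFP-high against GFP-negative gave 36 members in the proximal and 38 in the distal colon, colon against small intestine gave 42 lower in GFP-high cells, and the test of the organ difference gave 31.

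**Figure D5:**
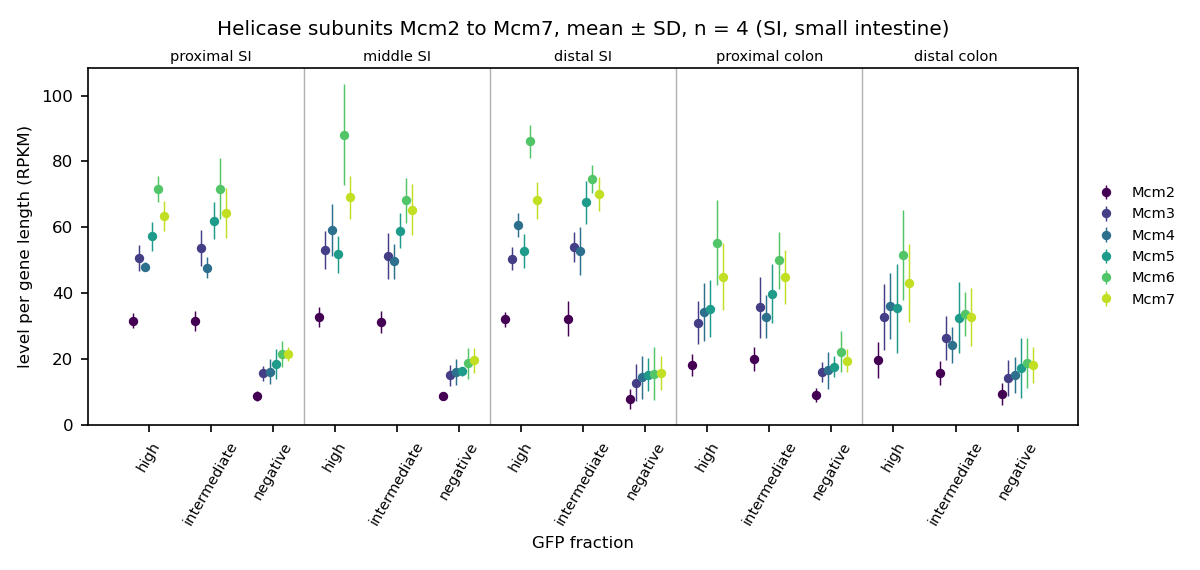
Level per length (RPKM, CPM per kilobase of exon) of Mcm2 to Mcm7 in the 15 groups, as group means with SD. Mcm6 is highest in 13 groups and Mcm2 is lowest in all 15, with the ratio between highest and lowest from 2.01 to 3.06.

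The 6 MCM subunits form a ring with 1 copy of each. When levels were set per length, Mcm2 was lowest and Mcm6 or Mcm7 highest in every group, while Mcm3, Mcm4 and Mcm5 changed places. Mcm6 had the highest mean RPKM in 13 of 15 groups and Mcm7 in the GFP-negative cells of the middle and distal small intestine, while Mcm2 was lowest in all 15. Mcm6 and Mcm7 held the highest pair of places in every group, and Mcm3, Mcm4 and Mcm5 came in differing order below them. In GFP-high cells of the middle small intestine Mcm6 stood at 88.2 and Mcm2 at 32.8 RPKM, and in GFP-negative cells of the distal colon at 18.8 and 9.35 RPKM. Neighbours in this order overlapped between libraries in 3 to 5 of the 5 neighbouring pairs of each group. The highest mean exceeded the lowest by 2.01-fold to 3.06-fold. The order depends on the deposited lengths, which were 6956 bases for Mcm2 and from 3589 (Mcm4) to 4666 (Mcm6) for the others. In mean CPM over the 60 libraries Mcm2 (143) stood above Mcm3 (128) and Mcm4 (125). Whether the lengths match the transcripts made in these cells was not tested.

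Other replication genes outside the 43 moved likewise, in comparisons whose shares over all genes are given above. Of 36 further genes (such as Dut, which clears dUTP, and the chromatin assembly genes Chaf1a and Chaf1b), GFP-high cells exceeded GFP-negative cells for 31, 34 and 34 called genes in the small intestine, from its proximal to its distal part, and for 30 and 31 in the proximal and distal colon. Pold4, the small subunit of polymerase delta, was called lower in each small intestinal part, by log2 differences of -0.77, -1.49 and -1.99. In GFP-high cells 30 of the 36 were lower in the colon, and Dna2, a nuclease and helicase, differed most (-1.32, adjusted p = 1.23e-11). The test of the organ difference called 17 smaller and 2 larger in the colon. Of 22 mitosis genes, 21 were higher in GFP-high cells in each of the 5 parts, with medians from 1.20 to 1.71, and the test of the organ difference called 1 (median -0.04), against 29 of the 43 members (median -0.60). The 22 G1 and G1/S regulators were mixed, with 14 higher and 3 lower in the proximal small intestine and 10 higher and 2 lower in the distal colon. Among them Cdk6, a G1 cyclin-dependent kinase, was 1.32 higher in GFP-negative cells of the colon than of the small intestine (adjusted p = 9.35e-18), and its GFP-high to GFP-negative difference was smaller there by -1.76 (adjusted p = 2.96e-15).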

How the data were processed

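The deposited table holds whole, unnormalised counts per gene and library, and no other measurement was used. STAR, featureCounts of Subread, edgeR and the mm10 build are named in the data processing per the submitters' processing notes; versions, annotation release and use of strand are not given in the sources used here. The 5 other value columns, among them the authors' log2 CPM, were not used. Groups came from the labels.

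Counts of all 60 libraries were fitted together in edgeR 4.0.16 (R 4.3.3, limma 3.58.1), with 1 mean per group, TMM scaling (factors 0.777 to 1.16) and filterByExpr over the 15 groups. This kept 23360 of 55357 genes and 99.97 to 99.99% of counts. Each of 23 comparisons used the quasi-likelihood F test, two-sided, with Benjamini-Hochberg adjustment over all genes tested, and a gene was called at an adjusted p below 0.05. The residual degrees of freedom were 45 and the prior ones 5.43, and intervals are at 95%. Levels are CPM, or RPKM with the deposited gene length. The fit was tested on simulated counts with known changes, for distal against proximal colon GFP-high cells only. The simulation gave every gene and group the same spread and no replicate effect, so it cannot show how the fit does where groups differ in spread. The deposited batch number equals the replicate number in 60 of 60 libraries, so the numbers were read as pairing libraries. As a check, residuals of 8000 genes correlated by 0.168 on average over 420 pairs of libraries with the same number and by -0.0521 over 1260 pairs with different numbers.

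The members, the role groups and the other gene lists were chosen with earlier results of these data known. Tests of single members are given for the member with the highest mean CPM of each role in every comparison, for up to 3 with the largest called difference in each direction and comparison, and for up to 5 called against the majority direction. Alternatives were DESeq2 1.42.0 (Wald test, and its size factors in edgeR), no filter, edgeR's newer quasi-likelihood method, a 2-fold limit, fits restricted to the compared groups, the replicate block, no libraries numbered 1, and each library left out in turn (keeping the genes and dispersion trend of all libraries). Leaving out the colon libraries numbered 3 was added after seeing the data. Exon overlap came from a GENCODE annotation of mouse, promoters from RefSeq, both on GRCm38.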

Additional observations from a re-analysis of the deposited data

Results flagged for a closer look

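A library was looked at again where its gap to the nearest of the other 3 was large against the range of its group (above Dixon's 95% limit), for the summed level and the leading member of each role, a rule that chance meets in about 1 in 20 groups; it was met in 8 of 165. The summed level of the members was 4196 CPM in GFP-high replicate 1 of the distal small intestine, against 4572 to 4648 CPM in the others. Cdt1 was low in GFP-high replicate 2 of the middle small intestine (103 CPM, others 127 to 131 CPM) and of the proximal small intestine (109 CPM, others 120 to 121 CPM). Lig1 stood out in GFP-intermediate replicate 4 of the distal small intestine (221 CPM, others 236 to 239 CPM) and in GFP-high replicate 1 of the proximal small intestine (212 CPM, others 191 to 193 CPM). Pcna was high in GFP-high replicate 3 of the proximal colon, at 291 CPM against 184 to 192 CPM. Rpa1 was high in GFP-negative replicate 3 of the same part (91.6 CPM, others 61 to 62.8 CPM), a library whose leukocyte markers (1370 CPM) and enteroendocrine markers (11165 CPM) were the highest of the colon, and the part of those cells was not tested. Rrm1 was high in GFP-negative replicate 4 of the middle small intestine, at 153 CPM against 70.6 to 84.1 CPM.

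For 11 named members the GFP-high to GFP-negative difference was smaller in the colon than in the small intestine by the test of that difference. On the log2 scale these were Orc1 at -1.74, E2f1 at -1.20, Gins2 at -0.91, Cdt1 at -0.82, Pola1 at -0.81, Mcm6 at -0.76, Lig1 at -0.68 (adjusted p = 0.00203), Rpa1 at -0.51 (adjusted p = 0.0191), Pold2 at -0.46 (adjusted p = 0.0355), Pcna at -0.45 (adjusted p = 0.0247) and Slbp at -0.39 (adjusted p = 0.00431).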

How the results depend on the processing

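Under other settings 173 counts of called members stayed within 1.5 times the count reported and 24 did not, and with 1 library left out 286 did and 6 did not. Of single members named, none reversed. With a difference of at least 2-fold also required, GFP-high against GFP-negative gave 17 members in the proximal and 18 in the distal colon, GFP-intermediate against GFP-negative gave 21 and 0, colon against small intestine gave 2, 2 and 1 in GFP-high, GFP-intermediate and GFP-negative cells, and the organ difference gave 2. Fitting only the groups compared called, between GFP-high and GFP-intermediate cells, 2, 10 and 13 members in the small intestine from its proximal to its distal part and 6 in the distal colon, and 7 between GFP-intermediate and GFP-negative cells of the distal colon, 5 between the organs' GFP-negative cells and 15 between distal and proximal small intestine (11 higher and 4 lower). This setting estimates the spread from those groups alone. The share of all genes called is not given here for it or for the other settings. DESeq2's Wald test called 1, 4 and 5 members between GFP-high and GFP-intermediate cells of the middle and distal small intestine and the distal colon, and 1 between distal and proximal small intestine, and edgeR's newer method called 1, 2 and 1 in the same 3 parts. The cause of these differences was not tested.

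With the replicate block, which uses the pairing by number, GFP-high against GFP-intermediate cells gave 2 called members in the distal small intestine and 2 in the distal colon; it moved no other count by over 1.5 times. Leaving out 1 library at a time gave 0 to 2 members between GFP-high and GFP-intermediate cells of the distal small intestine (2 without GFP-high replicate 4) and of the distal colon (2 without GFP-high replicate 2), 10 to 36 between GFP-intermediate and GFP-negative cells of the distal colon, and 0 to 1 between distal and proximal colon (1 without distal colon GFP-high replicate 3). The organ difference ran from 20 to 34.

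Fen1 had the lowest mean of the members, at 0.418 to 7.42 CPM. Counting error and the spread between libraries were not separated, and each interval holds both.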

Other observations

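Some G1 regulators were called between GFP-high and GFP-intermediate cells, where none of the 43 replication genes was; the 2 sets were not tested against each other. Of the 22 G1 and G1/S regulators, edgeR's quasi-likelihood test called 1 higher and 3 lower in GFP-high cells of the middle and of the distal small intestine and 1 lower in the distal colon. In the proximal small intestine and proximal colon 0 were called, with 5 and 4 at an unadjusted p below 0.05. Of all genes, 3.58 and 13.5% were called in the middle and distal small intestine and 1.81% in the distal colon. In the proximal small intestine and proximal colon the shares were 0.449 and 0.0428%. Cdk6 measured 212 to 278 CPM in GFP-high and 112 to 161 CPM in GFP-intermediate libraries of the distal small intestine (log2 difference 0.84 ± 0.15, adjusted p = 0.000223). E2f2, a factor of the E2F family, measured 31.2 to 55.8 against 90.1 to 114 CPM there (-1.19 ± 0.23, adjusted p = 0.000724). Cdkn1a, the cell cycle inhibitor p21, measured 14.6 to 23.2 against 31.8 to 93.3 CPM (-1.33 ± 0.31, adjusted p = 0.00404), and in the distal colon 15.7 to 38.0 against 47.5 to 64.7 CPM (-1.25 ± 0.31, adjusted p = 0.0307). The libraries of the 2 fractions did not overlap in any of these. Ccnd3, a D cyclin, was the other gene called lower, by -0.77 in the middle and -0.90 in the distal small intestine. The same regulators in the colon against the small intestine included Ccnd3 (0.52, adjusted p = 0.00256) and Cdkn1a (0.53, adjusted p = 0.0259), both higher in GFP-high cells of the colon.

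Mitosis genes had medians of 0.04, 0.31, 0.34, 0.45 and 0.52 (log2, GFP-high minus GFP-intermediate) in the small intestine from its proximal to its distal part and in the proximal and distal colon, and 1 of 22 was called, Nusap1 in the distal small intestine (0.79, adjusted p = 0.0323). Between the organs, Plk1, a mitotic kinase, was the mitosis gene called higher in the colon. Its difference was 0.43 in GFP-high, 0.36 in GFP-intermediate and 0.96 in GFP-negative cells (edgeR's quasi-likelihood test, adjusted p = 3.41e-09). In the same 3 fractions 8, 18 and 7 of the 22 were called lower, and 21.3, 22 and 22.4% of all genes were.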
